A study of Homo sapiens with 3 samples.

Results

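The RNA that 22RV1-shSCRM control cells contain was described from the Cy3 channel of 3 Agilent 2-color arrays. 22RV1 is a human prostate cancer line, and the shSCRM cells carry a scrambled lentiviral hairpin (pGIPZ) and were selected with puromycin. All 3 arrays held Cy3-labelled 22RV1-shSCRM RNA against Cy5-labelled RNA of 22RV1 cells with hairpin 1, 2 or 3 against SPINK1, and the arrays are numbered here by that hairpin. The Cy5 channel was not used. The labels do not say whether the 3 Cy3 targets came from 1 RNA extract or from several cultures, so each standard deviation (SD) below is the spread between 3 hybridizations and may be technical. The control RNA forms 1 group, so there was no other group to compare it with and no test was run.

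A gene was called detected when a probe for it was well above background, by the scanner software's own flag, on all 3 arrays. Levels are log2 of the spot's mean signal minus its local background, averaged over the spots of a probe, with the brightest detected probe standing for its gene. Of 43317 gene names on the array, 16127 (37.2%) were detected. Of 18521 names that match a protein-coding symbol in RefSeq, 11954 (64.5%) were detected. These shares are the background against which each gene group is read. By RefSeq type, the share was 23.1% among 2974 long non-coding RNAs and 39.4% among 287 small nucleolar RNAs. It was 14.7% among the 20695 names that RefSeq does not list. A further 815 names were above background on 2 arrays and 2205 on 1 array. How bright a probe is depends on its sequence as well as on the amount of RNA, so the level of one gene is not set against that of another. Genes of a list are ranked by spread after each array was centred on its median over detected genes. This holds for words such as smallest, widest, least repeatable and most variable, so the uncentred values printed beside them can order genes differently.

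The secretory luminal cell of the prostate depends on androgens, which switch on genes such as those of the kallikrein proteases, and is marked by transcription factors such as FOXA1, which opens chromatin, and HOXB13. Basal cells carry p63 and the keratins KRT5 and KRT14 instead. Prostate cancer cells usually keep the luminal program, and some carry genes of the gut or of neuroendocrine cells beside it. Luminal cells also have a particular metabolism, with zinc uptake and export of citrate in the normal gland and active fatty acid and cholesterol synthesis in cancer.

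Each array carried 60901 gene spots. Between 38.8% and 42.6% of them were well above background in Cy3, no gene spot was saturated, and none of the 308 negative control spots was above background on any array. The median local background was 19 to 20 units and the median gene spot lay 12.1 to 18.8 units over it, so most spots were near background. Array 1 read higher than the others at the dim end. Its median negative control was 9.8 units against 7.3 and 7.9, and the lowest detected log2 signal was 4.41 on array 1, 3.89 on array 2 and 4.08 on array 3. The median detected gene had a log2 level of 7.58, 7.43 and 7.46.

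A level is read through a probe of 60 bases. The probes of KLK1, KLK2, KRT18, AKR1C3 and ALB are shown because the luminal, keratin, steroid and liver results below rest on them, that of RN7SK because it stands for RNAs that lack a poly(A) tail of their own, and the 4 probes of MALAT1 because they read 1 gene at very different brightness. Each is written on the strand of the transcript as the array's annotation gives it, with hg19 positions, and capitals mark the stop codon in KLK1 and ALB. The KLK2, KRT18 and ALB probes span more of the chromosome than their own length, that is, they cross a splice junction.
KLK1 (chr19:51322447-51322506, minus strand): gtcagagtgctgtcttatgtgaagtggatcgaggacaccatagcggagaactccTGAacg
KLK2 (chr19:51380007-51380179, plus strand): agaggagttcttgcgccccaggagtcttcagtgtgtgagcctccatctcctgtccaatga
KRT18 (chr12:53346116-53346554, plus strand): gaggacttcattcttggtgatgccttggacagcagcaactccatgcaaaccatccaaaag
AKR1C3 (chr10:5147789-5147848, plus strand): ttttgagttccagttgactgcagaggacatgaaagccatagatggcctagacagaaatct
ALB (chr4:74285342-74286015, plus strand): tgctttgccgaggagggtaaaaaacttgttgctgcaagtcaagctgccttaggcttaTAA
RN7SK (chr6:52860659-52860718, plus strand): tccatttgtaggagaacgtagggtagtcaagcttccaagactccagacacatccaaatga
MALAT1 probe 1 (chr11:65268619-65268678, plus strand): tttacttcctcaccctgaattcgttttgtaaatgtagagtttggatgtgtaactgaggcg
MALAT1 probe 2 (chr11:65270980-65271039, plus strand): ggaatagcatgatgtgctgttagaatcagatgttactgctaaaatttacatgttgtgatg
MALAT1 probe 3 (chr11:65273714-65273773, plus strand): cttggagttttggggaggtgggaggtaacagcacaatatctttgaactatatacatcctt
MALAT1 probe 4 (chr11:65273871-65273930, plus strand): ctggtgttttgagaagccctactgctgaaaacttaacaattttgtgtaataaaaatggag

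MALAT1, a nuclear long non-coding RNA, was read at very different brightness by its 4 probes, which lie at different positions of the transcript. In units of signal, probe 1 read 128, 106 and 127 on arrays 1, 2 and 3, and probe 2 read 990, 898 and 920. Probe 3 read 35.1, 30.5 and 33.5, and probe 4 read 95, 86 and 97. Probe 2 was 28.3-fold brighter than probe 3 of the same gene, while the 3 arrays differed little for each probe. Whether the probes or the RNA along the transcript differ was not tested. G and C made up 40%, 35%, 41.7% and 35% of the bases of probes 1 to 4. Over the 3285 detected names with more than 1 detected probe, the brightest and the dimmest probe differed by a median of 2.05 on the log2 scale, with a 5th to 95th percentile range of 0.183 to 5.79, and by less than 1 for 25.5% of them. Of 5817 detected names with several probes, 2604 (44.8%) had all of them detected.

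Most luminal genes were detected. Of 30 luminal and androgen-regulated genes, 26 (86.7%) were detected, against 64.5% of protein-coding names. FOXA1, the pioneer factor of luminal cells, had log2 levels of 11.75, 11.60 and 11.62 (mean 11.66 ± 0.08 SD, n = 3 arrays). HOXB13, the posterior homeobox factor of the prostate, had 13.62, 13.33 and 13.50 (13.48 ± 0.15, n = 3). All 3 arrays agree within 0.3 on the log2 scale for both factors. With the mean of its detected probes in place of the brightest, FOXA1 had a level of 8.10.

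Androgen-driven genes were detected as well. KLK3, which encodes prostate-specific antigen, had 9.14, 8.86 and 9.01 (SD 0.144, n = 3), and KLK2, its neighbour and a related protease, had 7.56, 7.26 and 7.40 (7.41 ± 0.15, n = 3). For both, array 2 read lowest and array 1 highest. Each of these kallikreins also has a probe for another transcript, which was above background on 1 array in either case. TMPRSS2, an androgen-driven membrane protease, had 8.35, 8.26 and 8.21 (8.27 ± 0.07, n = 3). FOLH1, the prostate-specific membrane antigen, had 11.54, 11.31 and 11.53 (11.46 ± 0.13, n = 3) by its brightest probe and 8.47 by the mean of its detected probes. The 4 members not detected were STEAP4, a metalloreductase, the calcium-permeable channels TRPM8 and TRPV6, and MSMB, which encodes a major protein of prostatic fluid. All 4 were below the flag on every array. Of the 26 detected members, 3 had a mean log2 level under 6 (a signal of 64 units), among them ACP3, prostatic acid phosphatase, at 5.66, 5.33 and 5.33. Under this bound lay 20.6% of all detected protein-coding names.

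The kallikreins are a cluster of secreted serine proteases, and 7 of 15 were detected (46.7%), against 64.5% of protein-coding names. KLK11, the luminal protease with the smallest spread after centring among the kallikreins, had 8.47, 8.34 and 8.35 (8.38 ± 0.07, n = 3). KLK1, tissue kallikrein, had 11.94, 11.71 and 11.83 (11.83 ± 0.12, n = 3). KLK4, a protease of the prostate, had 7.78, 7.79 and 7.69. The least repeatable was KLK15, with 5.66, 5.15 and 5.04. KLK5, KLK6, KLK7, KLK9, KLK10 and KLK12, several of which belong to the skin, were not detected.

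The cells were epithelial by their junctions. Of 30 genes of epithelial junctions and identity, 29 (96.7%) were detected, against 64.5% of protein-coding names. The exception was the desmosomal cadherin DSC2. CDH1, E-cadherin, had 11.08, 11.02 and 11.01 (11.04 ± 0.04, n = 3), and EPCAM, an epithelial adhesion molecule, had 11.18, 11.12 and 11.10 (11.13 ± 0.04, n = 3). The simple-epithelium keratins KRT8 and KRT18, which pair into the filaments of luminal cells, had 12.68, 12.63 and 12.62 (12.64 ± 0.03, n = 3) and 13.57, 13.38 and 13.45 (13.47 ± 0.10, n = 3). By the mean of detected probes, KRT8 had 8.55 and KRT18 had 12.52. E-cadherin, EPCAM and KRT8 differed by less than 0.1 between any 2 arrays. Beside 64.5% of protein-coding names, 7 of 23 epithelial keratins (30.4%) were detected. KRT19 (13.47, 13.42 and 13.44) and KRT7 (10.12, 9.83 and 9.90), both keratins of simple epithelia, were among them. KRT15 (5.86, 5.12 and 5.23), a basal keratin, was higher on array 1 than on the others. Not detected were the skin keratins KRT1 and KRT2 and the stratified-epithelium keratins KRT4, KRT5, KRT6A and KRT6B, among 16 in all.

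Claudins seal tight junctions, and 8 of 21 (38.1%) were detected, against 64.5% of protein-coding names. CLDN3, CLDN4 and CLDN7, the claudins of many simple epithelia, had mean levels of 12.56 ± 0.13, 13.48 ± 0.12 and 11.65 ± 0.04 (n = 3 each). CLDN11 had 9.73, 9.56 and 9.61, CLDN12 had 8.55, 8.40 and 8.48, and CLDN23 had 6.43, 6.21 and 6.24. The widest spread was that of CLDN15, with 5.45, 5.04 and 5.15. CLDN2, CLDN5, CLDN6, CLDN8 and CLDN9 were below the flag on every array, and CLDN1, a broadly used claudin, was above it on part of the arrays.

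Basal genes were below the flag or dim. Of 16 basal genes, 8 (50%) were detected, against 64.5% of protein-coding names, and all 8 had a mean log2 level under 6. None of the 3 defining markers was well above background on any array. TP63, the master regulator of basal cells, read 16, 8.3 and 8.5 units of signal on arrays 1, 2 and 3, and KRT5 read 8.8, 11.1 and 8.1 units, less than the local background that was subtracted (19 to 20 units). EGFR, the epidermal growth factor receptor that basal cells use, was detected at 5.99, 5.76 and 5.58 by 1 of its 3 probes.

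Mesenchymal genes were mixed. Of 25, 12 (48%) were detected, against 64.5% of protein-coding names, and 8 of the 12 had a mean under 6. VIM, the intermediate filament of mesenchymal cells, had 9.50, 9.41 and 9.44 (9.45 ± 0.04, n = 3). ZEB1, a repressor of E-cadherin, read 3.72, 3.54 and 3.48 and was below the flag on every array, as were ZEB2 and the fibroblast genes FN1, COL1A2, COL3A1 and SPARC. The proteoglycan genes LUM (8.95, 8.63 and 8.83) and DCN (7.39, 7.41 and 7.32), used as fibroblast markers, were nevertheless detected, and COL1A1 (4.91, 4.71 and 4.88) lay close to the lowest detected signals. DCN was read by 1 of its 2 probes.

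SPINK1, a secreted trypsin inhibitor of the pancreas and gut and the gene silenced in the partner channel of these arrays, had log2 levels of 14.06, 13.89 and 13.97 in the control RNA. It belongs to a list of 32 gastrointestinal lineage genes. Of these, 13 (40.6%) were detected, against 64.5% of protein-coding names, and 8 of the 13 had a mean under 6. HNF4G, a nuclear receptor linked to gut-like prostate cancer, was read at 5.45, 5.39 and 5.18 by 1 of 3 probes, while the related HNF4A, at 4.26, 3.20 and 3.37, was not well above background on any array. VIL1, villin of the brush border, had 9.61, 9.45 and 9.52, GATA6, an endoderm factor, had 7.89, 7.78 and 7.77, and AGR2, a chaperone of mucus-secreting cells, had 7.89, 7.62 and 7.78. Members below the flag included the intestinal factor CDX2, the pancreatic factor PDX1 and the trefoil peptide TFF3.

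Of 32 neuroendocrine and neuronal genes, 18 (56.2%) were detected, against 64.5% of protein-coding names. CHGA, chromogranin A of secretory granules, had 7.17, 7.07 and 7.10 (7.11 ± 0.05, n = 3). SYP, synaptophysin of synaptic vesicles, had 5.50, 5.09 and 4.98 (5.19 ± 0.27, n = 3), with array 1 the highest. The neural lineage factors NEUROD1 and INSM1 and the adhesion molecule NCAM1 were not well above background on any array. SYT4, a synaptotagmin, had 11.88, 11.65 and 11.70, SRRM4, a neural splicing factor, had 11.17, 10.84 and 11.08, and ONECUT2, a homeobox factor, had a mean of 8.93 ± 0.12 (n = 3). DDC, which makes dopamine and serotonin, had 10.01, 9.90 and 9.79.

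The lists for liver, blood, vessel, muscle and pigment cells had detected shares of 14.3% to 30%, beside 64.5% of protein-coding names, and a few members were far above the detection floor. Of 20 hepatocyte genes, 6 (30%) were detected. ALB, serum albumin, was read by 1 probe at 13.70, 13.71 and 13.60 (13.67 ± 0.06, n = 3). APOA1, the other liver marker used, was also detected. The liver genes APOA2, APOB, APOC3, TF, FGA and FGB were below the flag on every array. APOH, a plasma glycoprotein, had 7.69, 7.62 and 7.55, and TTR, transthyretin, had a mean of 6.87 ± 0.11 (n = 3).

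Of 22 blood cell genes, 6 (27.3%) were detected. PTPRC, the leukocyte antigen CD45, passed by 1 of 5 probes at 4.67, 4.23 and 4.31, close to the lowest detected signals of 4.41, 3.89 and 4.08, and its other 4 probes were below the flag on every array. CD4, the T helper coreceptor, had 9.84, 9.57 and 9.65, and CD79A, a part of the B cell receptor, had 8.33, 8.01 and 8.07. CD3E, CD3D and MS4A1 and the globin gene HBB were not well above background. Of 14 endothelial genes, 2 (14.3%) were detected, VWF (4.89, 4.42 and 4.55) and CDH5 (mean 4.60 ± 0.36, n = 3), both dim, and PECAM1, the defining endothelial adhesion molecule, was not (3.51, 2.94 and 3.35). Of 19 muscle genes, 3 (15.8%) were detected. DES, desmin, had 5.90, 5.55 and 5.38, and MB, the oxygen carrier myoglobin, had 9.75, 9.50 and 9.67. Among 9 melanocyte genes, 2 (22.2%) were detected, PMEL and MITF, and MLANA, a melanosome antigen, was not (3.41, 2.23 and 3.00). MITF (8.07, 7.98 and 8.01) is also used outside pigment cells.

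Cancer-testis antigens are silent in most adult tissues and often switched on in tumors. Of 22 with a probe, 7 (31.8%) were detected, against 64.5% of protein-coding names. CTAG2 had 13.76, 13.65 and 13.70 (13.70 ± 0.05, n = 3). MAGEA1 had 10.37, 10.15 and 10.26 and MAGEA4 had 9.69, 9.46 and 9.55. These 3 had the smallest spreads of the list, and ACRBP, a sperm acrosome protein, the largest (5.90, 5.50 and 5.48). MAGEA10, MAGEA11, MAGEB1, MAGEB2, MAGEC1 and MAGEC2 were below the flag on every array, so members of the same family were found on both sides of it.

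Nuclear receptors are transcription factors that bind hormones, sterols and lipids. Of 48, 28 (58.3%) were detected, a share near the 64.5% of protein-coding names. The glucocorticoid receptor NR3C1 had 7.86, 7.75 and 7.80 (7.80 ± 0.06, n = 3) and the vitamin D receptor VDR had 9.50, 9.32 and 9.49. The estrogen receptors ESR1 and ESR2 and the progesterone receptor PGR were not well above background on any array. All 3 retinoic acid receptors (RARA, RARB and RARG) were detected, the dimmest at a mean of 4.38, close to the lowest detected signals. Of 3 retinoid X receptors, 2 were detected. RARG, with 8.14, 8.04 and 8.01, was more repeatable than most, as were the orphan receptors ESRRA (11.23, 11.12 and 11.12), RORB (6.25, 6.05 and 6.08) and the partner receptor RXRB (6.41, 6.28 and 6.25). NR6A1, the germ cell nuclear factor, had the widest spread after centring, with 6.62, 7.01 and 6.69 and array 2 the highest. Other members below the flag were PPARG of fat cells, NR1D1 and RORA of the clock, NR1I2 of the liver, and NR5A1 and NR0B1 of steroid glands.

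Receptor tyrosine kinases carry growth factor signals. Of 58, 30 (51.7%) were detected, against 64.5% of protein-coding names, and 11 of the 30 had a mean under 6. All 4 receptors of the EGFR family were detected, with ERBB2 at 9.77, 9.68 and 9.65 and ERBB3 at 8.66, 8.50 and 8.42. FGFR3 had 11.14, 11.08 and 11.13 by the brighter of its 2 probes. Other detected receptors were MET for hepatocyte growth factor (7.34, 7.32 and 7.28) and IGF1R for insulin-like growth factor (7.92, 7.63 and 7.75). Smallest in spread after centring were DDR1, a collagen receptor (9.31, 9.17 and 9.22), AATK (6.77, 6.58 and 6.58) and LMTK2 (5.07, 4.91 and 4.96). Widest was EPHA2, an ephrin receptor (5.32, 4.84 and 4.44). Below the flag were INSRR, PDGFRA, CSF1R, FLT3, FLT1 and KDR, several of which belong to blood, vessel and stromal cells.

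Other receptor groups spread over a wide range. Of 22 Notch, Wnt and Hedgehog receptors, 19 (86.4%) were detected, against 64.5% of protein-coding names. Among the 19 were 4 of 4 Notch receptors and 9 of 10 Frizzled receptors. FZD5, a Wnt receptor, had 9.71, 9.57 and 9.57, the Wnt coreceptor LRP5 had 6.44, 6.34 and 6.32, and FZD7 had 5.84, 5.34 and 5.67. FZD10, a Wnt receptor, and the stem cell receptor LGR5 were not detected. Of 14 receptors of the TGF-beta superfamily, 7 (50%) were detected, among them TGFBR2 (5.45, 5.32 and 5.30) and ACVR2B, an activin receptor (mean 6.94 ± 0.06, n = 3). TGFBR1 was above background on part of the arrays only, and ENG and ACVRL1 of vessels on none.

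Cytokine and death receptors were detected in 21 of 24 cases (87.5%), against 64.5% of protein-coding names. LTBR, the lymphotoxin receptor, had 8.43, 8.27 and 8.29, IL10RB had 6.89, 6.71 and 6.73, and TNFRSF1A, a receptor for tumor necrosis factor, had 7.63, 7.52 and 7.55. LIFR had the widest spread, with 5.18, 4.52 and 4.73, and IL6R and TNFRSF1B were not detected. The leptin receptor LEPR rests on 1 of 4 probes. Its probe for transcript NM_001003680 had 13.31, 13.28 and 13.26, and the other 3 probes, with mean levels of 3.64, 3.83 and 3.97, were below the flag on every array. The call for LEPR therefore holds for the sequence of that probe.

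Integrins anchor cells to matrix, and 12 of 26 (46.2%) were detected, against 64.5% of protein-coding names. ITGB1, the common beta chain, had 7.10, 6.98 and 7.01, ITGAV, a vitronectin receptor chain, had 9.38, 9.29 and 9.30, and ITGB5 had 9.02, 8.90 and 8.89. ITGA6, a laminin receptor chain of basal cells, had 4.90, 4.18 and 4.29, with array 1 the highest. ITGA2, ITGA4, ITGA8, ITGA9, ITGA10 and ITGA11 were not detected. Among 42 G protein-coupled receptors, 12 (28.6%) were detected, against 64.5% of protein-coding names. CXCR4, a chemokine receptor, had 6.86, 6.71 and 6.72, ADRA1A, an adrenergic receptor, had 7.58, 7.44 and 7.48, and F2RL1, a protease-activated receptor, had 8.76, 8.57 and 8.61. ADORA2B, an adenosine receptor, had 5.52, 5.24 and 5.58. The prostate olfactory receptors OR51E1 and OR51E2 and the adrenergic receptors ADRB3 and ADRA1B were not well above background, nor were the opioid receptors OPRK1 and OPRM1.

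HOX genes give cells their position along the body, in 4 clusters. Of 39, 21 (53.8%) were detected, against 64.5% of protein-coding names. The 21 were 8 of 11 in cluster A, 6 of 10 in cluster B and 7 of 9 in cluster C. In cluster D, 0 of 9 were detected, and all its members were below the flag on every array. HOXC6 had 9.97, 9.85 and 9.90, HOXA4 had 5.79, 5.66 and 5.74, and HOXA6 had 5.77, 5.66 and 5.67. HOXA10 was the least repeatable gene of all lists. Its probe gave 8.70 on array 1, 6.94 on array 2 and 7.47 on array 3 (7.71 ± 0.90, n = 3), while a second probe gave 6.21, 5.86 and 6.08. Among 19 SOX genes, 4 (21.1%) were detected, against 64.5% of protein-coding names. SOX4 had 8.30, 8.16 and 8.18, SOX9, a factor of epithelial progenitors, had 7.10, 7.17 and 7.10, and SOX13 had 6.41, 6.30 and 6.20. SOX2, a factor of pluripotent and neural cells, had a mean of 5.02 ± 0.23 (n = 3).

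Steroid enzymes make and clear androgens. Of 34 with a probe, 19 (55.9%) were detected, against 64.5% of protein-coding names. AKR1C3, which reduces androstenedione to testosterone, had 12.05, 11.95 and 11.93 (11.98 ± 0.07, n = 3). The smallest spreads after centring were those of AKR1C4 (5.56, 5.39 and 5.41), AKR1C1 (9.03, 8.87 and 8.87) and HSD17B8 (10.20, 10.01 and 10.08). The widest was that of HSD17B6 (6.75, 6.81 and 6.52). Of the 3 steroid 5-alpha-reductase genes, SRD5A1 (5.86, 5.46 and 5.71) and SRD5A3 (7.11, 7.10 and 6.98) were detected and SRD5A2, the classical prostate enzyme, was not (4.38, 3.26 and 3.41). UGT2B15, which conjugates androgens for excretion, had 8.47, 8.42 and 8.38. The enzymes that open the pathway from cholesterol, STAR, CYP11A1, CYP17A1, HSD3B1 and HSD3B2, were below the flag on every array. HSD17B3, the testis enzyme that makes testosterone, and HSD17B2, which inactivates it, were also below the flag.

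**Figure D1:**
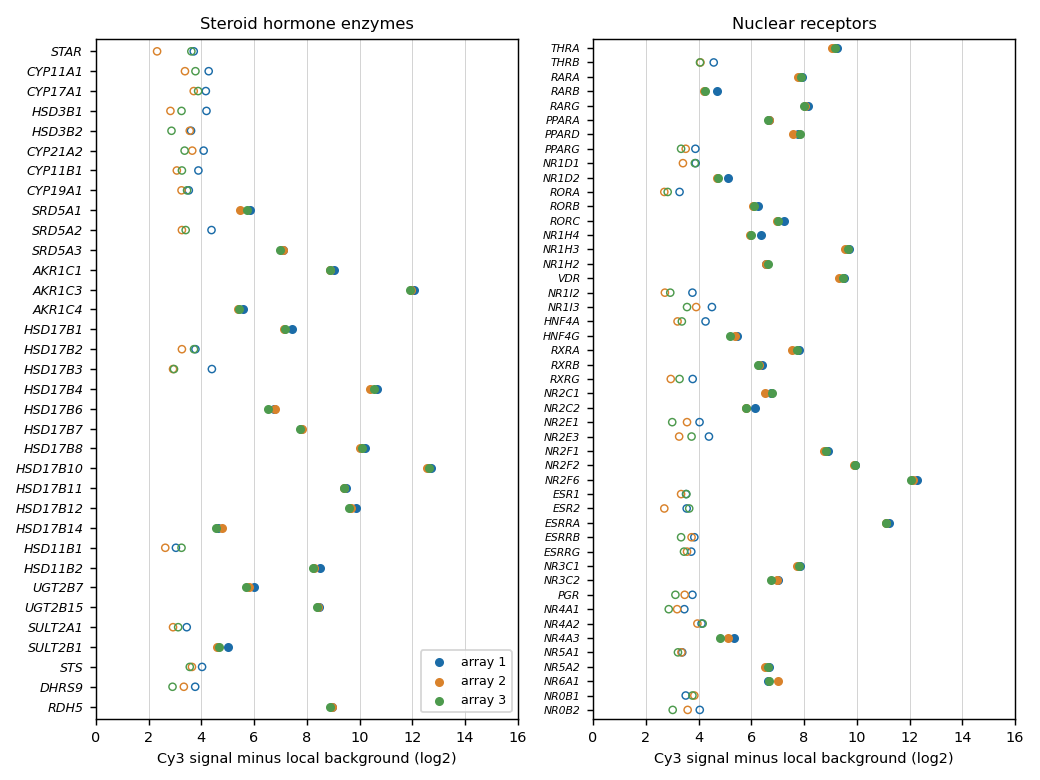
Log2 Cy3 signal minus local background (x axis) on arrays 1, 2 and 3 for steroid hormone enzymes (left) and nuclear receptors other than those left out here (right). Filled points are genes detected on all 3 arrays, open points genes that were not. On the left the block from STAR to CYP19A1 is open and AKR1C3 lies near 12, and on the right ESRRA lies near 11.2 while ESR1, ESR2 and PGR are open.

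Genes of central carbon metabolism were detected most fully around the citrate cycle. Of 35 genes of pyruvate, citrate cycle and malic enzymes, 34 (97.1%) were detected, the exception being PCK1, the cytosolic gluconeogenic kinase. PDHB, a subunit of pyruvate dehydrogenase, had 11.00, 10.84 and 10.88, and IDH3A, isocitrate dehydrogenase, had 9.35, 9.21 and 9.25. ME1, cytosolic malic enzyme, had the widest spread, with 5.29, 4.37 and 5.06 and array 2 the lowest. Among 48 glucose transporters and glycolysis isoforms, 34 (70.8%) were detected, a share near the 64.5% of protein-coding names. Among them were the aldolases ALDOA (13.09, 12.96 and 12.98) and ALDOC (8.13, 7.96 and 7.97). SLC2A1, the common glucose transporter, had 9.16, 9.06 and 8.98 and SLC2A8 had 11.05, 10.94 and 10.95, while SLC2A2, SLC2A3 and SLC2A9 were below the flag. HK2, a hexokinase of growing cells, had 10.52, 10.48 and 10.43, and HK3 was not detected. The sperm isoforms GAPDHS and PGK2 were not detected either, nor PKLR of liver and red cells. The widest spread was that of SLC2A13, with 4.80, 4.62 and 4.90.

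Cholesterol synthesis genes were detected nearly throughout. Of 24 cholesterol synthesis genes, 23 (95.8%) passed, all but IDI2, a muscle isomerase. EBP, a sterol isomerase, had 13.44, 13.28 and 13.30, and the mevalonate kinases MVK (12.63, 12.49 and 12.55) and PMVK (11.42, 11.29 and 11.34) were as repeatable. MSMO1, a sterol oxidase, had the widest spread (7.44, 7.11 and 7.37). Of 46 fatty acid enzymes and binding proteins, 35 (76.1%) were detected, against 64.5% of protein-coding names. FASN, fatty acid synthase, had 12.54, 12.38 and 12.40, ACACA, acetyl-CoA carboxylase, had 11.49, 11.35 and 11.36, and ELOVL1, an elongase, had 7.99, 7.85 and 7.85. These 3 had the smallest spreads of the list. FADS3 had the widest, with 5.85, 5.30 and 5.57. The binding proteins FABP1 to FABP4, of liver, gut, heart and fat, were not detected, nor were ELOVL3 and ACSS1. AMACR, the racemase used as a prostate cancer marker, was read by 1 of 2 probes at 6.16, 5.74 and 5.77.

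Amino acid genes passed in 31 of 37 cases (83.8%), against 64.5% of protein-coding names. PHGDH, the first enzyme of serine synthesis, had 10.48, 10.36 and 10.39, the glutamine transporter SLC38A1 had 10.60, 10.44 and 10.50, and PYCR1, a proline enzyme, had 13.22, 13.02 and 13.08. SLC1A4 had the widest spread (5.25, 4.91 and 4.75). The 6 not detected were ARG1, OTC, TAT, HAL, TDO2 and IDO1, which belong mainly to liver, skin or immune cells. One-carbon and polyamine enzymes were detected in 27 of 28 cases (96.4%), all but SMOX. MTHFD1, a folate enzyme, had 11.00, 10.81 and 10.88, AHCY, which clears S-adenosylhomocysteine, had 8.81, 8.70 and 8.73, and SAT2 had 12.16, 12.04 and 12.06. ODC1, the first enzyme of polyamine synthesis, had 13.27, 13.12 and 13.23. AZIN2, an antizyme inhibitor, had the widest spread (4.85, 5.05 and 4.64).

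Of 19 aldehyde dehydrogenases, 13 (68.4%) were detected. ALDH16A1 had 8.49, 8.32 and 8.34, ALDH7A1, an enzyme of lysine breakdown, had 8.79, 8.60 and 8.69, and ALDH2, which clears acetaldehyde, had 6.20, 6.03 and 6.11. ALDH1A1, a retinaldehyde enzyme used as a stem cell marker, had 6.20, 6.32 and 6.13, and ALDH1A2 and ALDH1A3 were not detected. ALDH3B1 spread most (5.44, 4.93 and 4.81). Of 24 zinc transporters, 16 (66.7%) were detected. Both this share and that of the aldehyde dehydrogenases lie near the 64.5% of protein-coding names. Of 14 SLC39A genes, which bring zinc into the cytosol, 12 were detected, and of 10 SLC30A genes, which move it out, 4 were. Whether these families differ was not tested. SLC39A1, the main zinc importer of prostate cells, had 9.64, 9.63 and 9.53. The least variable were SLC30A9 (7.71, 7.58 and 7.58), SLC39A13 (9.21, 9.02 and 9.04) and SLC30A7 (7.36, 7.26 and 7.30), and the most variable was SLC39A5 (4.92, 4.39 and 4.38).

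Among 19 long non-coding RNAs chosen by name, 13 (68.4%) were detected, against 23.1% of the 2974 names that RefSeq lists as long non-coding RNAs. MALAT1, SNHG8 (13.00, 12.82 and 12.93) and CRNDE (11.99, 11.77 and 11.87) had the smallest spreads and HOTAIRM1 the widest (7.27, 7.28 and 7.03). The prostate transcripts PCA3, PCGEM1 and PCAT6 were below the flag on every array, and SCHLAP1 was above it on part of them. Per the labels, total RNA was tailed with poly(A) ahead of the labelling step, and 13 of 16 RNAs that normally lack such a tail (81.2%) were detected. RN7SL1, the RNA of the signal recognition particle, had 14.34, 14.17 and 14.23, RPPH1, the RNA of ribonuclease P, had 5.90, 5.71 and 5.80, and RNU4ATAC, a minor spliceosomal RNA, had 12.77, 12.58 and 12.56. RN7SK, a repressor of transcription elongation, had 9.98, 9.83 and 9.77, and RNU12 had the widest spread (5.99, 5.65 and 5.65). All 5 replication-dependent histone genes of the list were detected. RNU4ATAC passed by 1 of 2 probes. All 16 reference genes were detected, with TFRC (11.50, 11.38 and 11.38), GUSB (11.38, 11.23 and 11.29) and PGK1 (13.72, 13.60 and 13.63) the least variable and IPO8 (8.47, 8.05 and 7.96) the most.

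The hybridizations repeated closely. The SD of a gene's log2 signal over the 3 arrays had a median of 0.112 as scanned. Without array 1 this median was 0.0632, without array 2 it was 0.0942 and without array 3 it was 0.131. After each array was centred on its median over detected genes, the median SD was 0.0742, with a 5th to 95th percentile range of 0.018 to 0.246, and 91.3% of genes had an SD under 0.2. Across the 16127 detected genes, Pearson's r was 0.9971 between arrays 1 and 2, 0.9980 between arrays 1 and 3 and 0.9981 between arrays 2 and 3, and Spearman's rho was 0.9954, 0.9964 and 0.9968. These are correlations across genes that share probes and base composition, and the genes are not independent replicates.

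The spread between arrays depended on level. With the detected genes split by level into 5 groups of equal size, the median centred SD was 0.154 in the dimmest group, and over the next groups it was 0.0984, 0.0691, 0.0526 and 0.0517. The shift of array 1 was also largest in the dimmest group. Array 1 read higher than array 2 by a median of 0.33 there and by 0.22, 0.17, 0.14 and 0.15 in the next groups. Arrays 2 and 3 differed by a median of -0.04 in the dimmest group and -0.06 in the brightest. Centring takes out only 1 median per array, so the excess shift of array 1 among dim genes remains in their centred SDs. How much of those SDs it makes up was not tested. Among 10 spike-in control probes, the brightest differed between arrays 1 and 2 by 0.12 (log2 levels of 14.40, 14.29 and 14.28) and the dimmest by 0.58 (5.59, 5.01 and 5.08). The largest difference among them was 0.89 (5.90, 5.01 and 5.04). The median centred SD was 0.130 for detected basal genes and 0.222 for the 2 detected endothelial genes, both dim lists, against 0.048 for reference genes.

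A few genes departed from this. Between arrays 1 and 2, 20 genes differed by more than 1 on the log2 scale after centring, between arrays 1 and 3, 9 did, and between arrays 2 and 3, 7 did. The 5 names with the widest spread of all were 2 long non-coding RNAs, LOC100288846 (32, 269 and 20 units of signal) and DKFZp779M0652 (log2 levels of 5.02, 7.81 and 4.88), the endocytosis adaptor ITSN2 (4.78, 6.68 and 4.53), the centrosome gene SDCCAG8 (6.36, 7.79 and 6.09) and LOC100507316 (10.55, 8.79 and 8.80). In the first 4 array 2 stood above the other arrays, and in LOC100507316 array 1 did. The spot of LOC100507316 was marked as non-uniform by the scanner software on array 1. For the other 4 no spot was marked.

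Replicated probes give the spread within an array. For the 278 detected probes printed in 10 spots, the median SD over spots of 1 array was 0.137, 0.0895 and 0.145 on arrays 1, 2 and 3, larger than the SD between arrays of the 10-spot means (0.0296). Much of this within-array spread was shared. A spot's deviation from its probe mean correlated between arrays at 0.698 (arrays 1 and 2), 0.864 (arrays 1 and 3) and 0.703 (arrays 2 and 3) over 2780 spots in the same positions, and a single spot differed between arrays by a median SD of 0.0572 after centring. With the scanner software's processed signal, the median SD over all 300 replicated probes fell to 0.056, from 0.126 (means over arrays). The level of a gene read by 1 spot thus carries a deviation that repeats on every array and does not show in the SD between arrays. These spots share layout and slide, so the correlations are given as a description.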

How the data were processed

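Gene expression was measured on 3 Agilent 2-color arrays on 1 slide. The authors deposited, for each array, the output of Feature Extraction 11.5.1.1, which gives the intensity of each spot and its local background before normalization, and the flag for a spot well above background (a multiplier of 13 in the file headers). Only Cy3 intensities were used here. The deposited table of signed values for shSPINK1 against shSCRM was not used. Local background was subtracted, log2 was taken, spots of a probe were averaged, and control spots were left out. A probe counted as detected when every spot was flagged on all 3 arrays. Arrays were not scaled to each other. Names were matched to RefSeq for 22622 of 43317 names (10 listed genes under an older name), and coordinates are those of the array annotation (hg19).

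The members and the 36 gene lists were chosen with earlier results of these data known. Of 936 listed genes, 926 had a probe and 559 were detected, 364 of them by a gene's single probe and 112 by some of several probes. Values in every array were given for SPINK1, for the defining members of each lineage, in each other list for up to 3 detected members with the smallest SD after centring and 1 with the largest, with up to 6 undetected members, and for the 5 names with the largest SD. Other members were named after their values were seen. Some members of the lists are counted but not reported here by name. The level of a gene depends on the probe, and genes with near-identical copies (KRT18, CTAG2, HBG1, RN7SL1) may share signal with them. The number of arrays limits the precision. The step that computes the spread was tested on simulated data whose shifts between arrays were the same at every level. Python 3.11.15, pandas 2.3.3, R 4.3.3 and limma 3.58.1 were used. Alternatives covered the detection rule, background correction, scaling, how a gene's probe is chosen, and dropping each array in turn.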

Additional observations from a re-analysis of the deposited data

How the results depend on the processing

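The number of detected gene names was 16264 to 16526 when 1 array was left out, 16942 with 2 arrays required, 19147 with 1, 20977 with the looser flag for a signal that is positive and significant, and 16131 with any spot of a replicated probe (an alternative chosen after seeing the data). Leaving out spots marked as outliers gave 16127 again. Of 252 counts of list members under these rules, 244 stayed within 1.5 times and 8 did not. These were endothelial and muscle genes with 1 array required, and with the looser flag these lists together with blood cell genes, TGF-beta superfamily receptors, G protein-coupled receptors and SOX genes. The looser flag called 73.5% of protein-coding names. Dim members of the lists for other tissues are therefore sensitive to the rule.

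The median level of a detected gene, 7.49 on the log2 scale, was 8.83 with the processed signal, 7.83 with normexp, 0.00 after centring, 1.76 after scaling to the 75th percentile and 7.19 with the mean of a gene's kept probes, and 7.44 to 7.52 when 1 array was left out. Of the 21 defining genes, all 21 moved by more than their SD with the processed signal (by 0.63 to 1.80), after centring (by -7.49) and after scaling to the 75th percentile (by -5.73), 8 did with normexp (by up to 1.69) and 6 did with the mean of the kept probes (by down to -4.09, for KRT8). None did under quantile normalization or without 1 array. The median SD between arrays, 0.112, was 0.0731 with normexp, 0.0742 after centring, 0.0716 after quantile normalization and 0.0632 to 0.131 when 1 array was left out, with the lowest value without array 1. The SD within an array, 0.126, was 0.056 with the processed signal and 0.115 to 0.144 without 1 array. The difference between probes of a gene was 2.01 to 2.07 without 1 array. The cause of these differences was not tested. Signal over background limits what can be called absent, since a gene below the flag has only a bound, and the files do not show whether the 3 targets share an RNA extract.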
